A study of Mus musculus with 18 samples.

Results

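The comparison set tRNA held in ribosomes against total tRNA in the brain of 3 wild-type (WT) mice. Both libraries came from each mouse, so the contrast was paired by mouse number. All 6 such libraries of the 18 in the series were used: WT ribosome-contained tRNA from mice 1 to 3 and WT total tRNA from mice 1 to 3. The mice were C57BL/6 males aged 8 weeks, with no treatment. The same contrast in 3 Ftsj1 knockout (KO) males of the same strain and age, with ribosome-contained and total libraries from each mouse, served as a repeat in mice that the WT comparison did not use. How the Ftsj1 allele was made is not given in the sources used here. Per the labels' protocols, ribosome-contained tRNA was recovered after ribosome profiling of the frozen brains, while total tRNA was cut from a gel by size after RNA was taken from brain lysate. The ribosomal source and the way of preparing the RNA therefore changed together, and their effects on any difference below cannot be told apart.

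A transfer RNA reads a codon with its anticodon and carries the matching amino acid. Elongator tRNAs are brought to the ribosome by the elongation factor eEF1A, the initiator methionine tRNA (iMet) by the initiation factor eIF2, and the selenocysteine tRNA (SeC) by a factor of its own, eEFSEC. tRNAs with the same anticodon and different bodies are called isodecoders, and those with different anticodons and the same amino acid are isoacceptors. The first anticodon base pairs with the third codon base, the wobble position, and is often chemically modified.

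The table listed 147 rows, each a tRNA name with its anticodon, in 54 anticodon families. Of these rows, 105 had a mean of 10 or more reads over the 6 libraries and were tested. They fell into 49 tested families and 22 amino acid groups, with iMet and SeC counted apart from methionine and the standard amino acids. The 42 rows that were not tested held 0.0388%, 0.0468% and 0.0199% of the ribosome-contained reads and 0.00644%, 0.00624% and 0.00898% of the total reads of mice 1, 2 and 3. Ribosome-contained libraries held 492845 to 629418 reads and total tRNA libraries 1505291 to 1559702 reads. A share below is the percentage of all tRNA reads of a library, so a higher share of one tRNA lowers the others. A table of tRNA counts holds no brain marker genes, so the tissue label was not checked. Row names such as Arg18 are the authors' own, and the sources used here do not pair them with gene names.

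Summed by amino acid, the ribosome-contained libraries held larger shares of initiator methionine and glycine tRNA than total tRNA did, and almost no selenocysteine tRNA. iMet took 4.66 ± 0.318% of ribosome-contained reads and 1.92 ± 0.119% of total reads (SD, n = 3 mice each), and glycine tRNA 9.31 ± 0.307% and 4.41 ± 0.0433%. Alanine, glutamine, tyrosine, valine and phenylalanine tRNAs were also higher in ribosomes, and arginine, cysteine, lysine, tryptophan, histidine, threonine, glutamate and proline tRNAs were lower. Of the 22 groups, 20 passed the test (90.9% called), 11 higher and 9 lower in ribosomes, by edgeR's quasi-likelihood test, in which each mouse formed a block and p-values were Benjamini-Hochberg adjusted (threshold 0.05). The shares of the groups did not overlap in 18 of the 22 (81.8%). Scaling by total reads left 7 higher and 9 lower, because the calls for asparagine, methionine, leucine and isoleucine were lost. Asparagine and elongator methionine tRNA are 1 family each, and with the same reads neither passed in the fit of families (edgeR adjusted p = 0.35 and 0.1).

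iMet sets the start of translation. Its share of ribosome-contained reads was 4.98%, 4.34% and 4.66% in mice 1, 2 and 3, against 2.03%, 1.79% and 1.93% of total reads. The ribosome values lay above all total values, and the mice had nearly the same ratio of the 2 shares, 2.46, 2.43 and 2.41. The log2 fold change was 1.33 ± 0.06 (SE; edgeR adjusted p = 3.9e-16). Elongator methionine tRNA, with the same CAT anticodon, took 1.20%, 1.15% and 1.12% of ribosome-contained reads, against 1.13%, 1.02% and 1.06% of total reads. Its groups overlapped, with a log2 fold change of 0.16 ± 0.08 (SE; edgeR adjusted p = 0.046) that did not pass under either other scaling or without the mouse block (adjusted p = 0.06).

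Glycine tRNA had 9.03%, 9.64% and 9.25% of ribosome-contained reads, against 4.45%, 4.40% and 4.37% of total reads. Every ribosome value was at least 2.03 times the total value of the same mouse. The log2 fold change was 1.12 ± 0.07 (SE; edgeR adjusted p = 4.8e-14). All 4 glycine families were higher: Gly-TCC, Gly-ACC, Gly-GCC and Gly-CCC had ribosome-to-total ratios of 2.96 ± 0.0285, 2.37 ± 0.156, 1.92 ± 0.0923 and 1.41 ± 0.249 (SD, n = 3). Alanine tRNA took 6.86%, 7.21% and 6.75% of ribosome-contained reads, against 4.66%, 4.35% and 4.72% of total reads. Its mean ratio was 1.52 ± 0.121 (SD, n = 3), and all 4 tested alanine families were called higher. The call of the scarce family Ala-GGC, among these 4, was lost when any mouse was left out.

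Selenocysteine tRNA inserts selenocysteine at UGA codons of a small set of messenger RNAs. It had 89, 68 and 50 reads in the ribosome-contained libraries of mice 1, 2 and 3, against 7188, 7066 and 7742 reads in total tRNA. These were 0.0181%, 0.0127% and 0.00794% of ribosome-contained reads and 0.478%, 0.460% and 0.496% of total reads. The groups were far apart in each mouse, with ratios of 0.0378, 0.0276 and 0.0160, and the 95% Wilson intervals of the ribosome shares, for counting error only, ran from 0.00603% to 0.0222%. The log2 fold change of -5.21 ± 0.26 (SE; edgeR adjusted p = 1.8e-15) was the largest in size of any amino acid group.

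**Figure D1:**
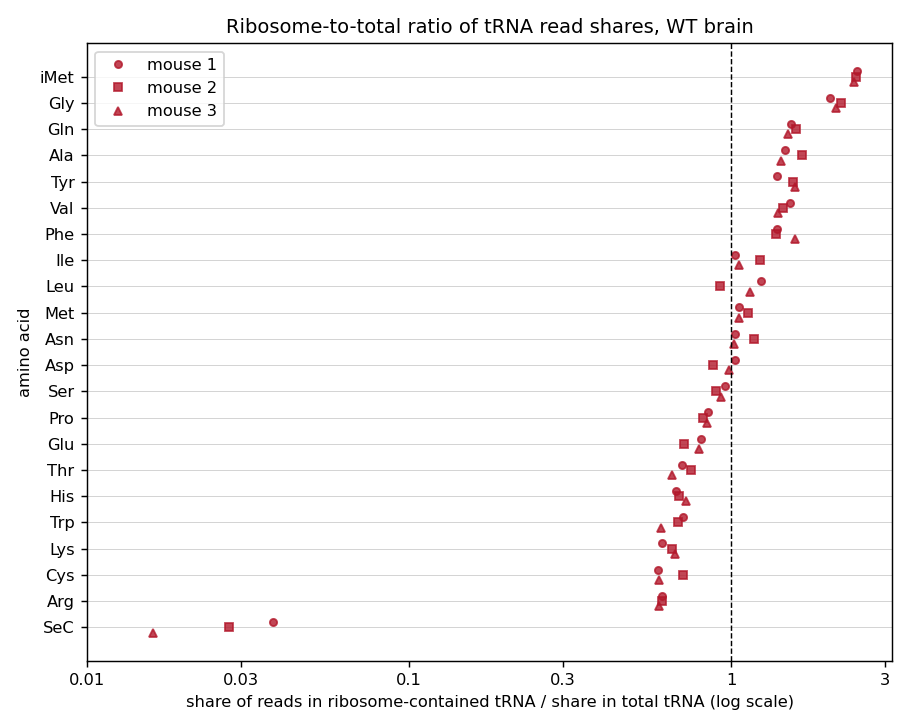
Ratio of the share of ribosome-contained reads to the share of total reads for each amino acid group (log axis), with 1 point per WT mouse and a dashed line at equal shares. iMet and glycine lie above 2 in all 3 mice, most groups lie between 0.6 and 1.6, and SeC lies below 0.04.

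Among the groups lower in ribosomes, arginine tRNA differed most in share, by -4.59 percentage points, and lysine next. Arginine took 7.14%, 7.08% and 6.92% of ribosome-contained reads, against 11.7%, 11.6% and 11.6% of total reads, with a log2 fold change of -0.68 ± 0.07 (SE; edgeR adjusted p = 1.8e-09). Lysine took 5.69%, 6.58% and 6.34%, against 9.37%, 10.1% and 9.50%. Neither pair of groups overlapped. Cysteine, tryptophan, histidine and threonine tRNA had mean ratios of 0.632, 0.665, 0.695 and 0.702, and glutamate and proline 0.769 and 0.835. Gln, Tyr, Val and Phe, on the other side, had mean ratios of 1.54, 1.51, 1.46 and 1.45. Serine and aspartate tRNA did not pass, with log2 fold changes of -0.07 ± 0.06 and -0.01 ± 0.07 (SE), the sign of aspartate changing with the scaling. The two-sided exact permutation test on the paired shares cannot give a p under 0.25 with 3 mice, so the calls rest on the fit across all groups.

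Isoacceptors of one amino acid often differed in direction. Of the 49 families, 39 passed (79.6% called), 20 higher and 19 lower in ribosomes, with a median log2 fold change of 0.09 over all families. Shares did not overlap in 42 of the 49 (85.7%). Of the called families, 4 were higher and 4 lower by at least 2-fold. The 5 largest increases among families with a mean of 100 or more reads were Gly-TCC, iMet-CAT, Gly-ACC, Ala-AGC and Gly-GCC. Gly-TCC had 3.07%, 3.16% and 3.09% of ribosome-contained reads, against 1.05%, 1.07% and 1.03% of total reads, and its groups were separate in every mouse. The 5 largest decreases were SeC-TCA, Ser-CGA, Thr-CGT, Arg-TCG and Arg-CCG. Ser-CGA had 0.457%, 0.443% and 0.476% of ribosome-contained reads, against 1.21%, 1.14% and 1.18% of total reads. Thr-CGT had 0.771%, 0.754% and 0.709%, against 1.72%, 1.73% and 1.72%. The log2 fold changes of Ser-CGA and Thr-CGT were -1.36 ± 0.07 and -1.22 ± 0.06 (SE; edgeR adjusted p = 8.1e-09 and 5.9e-09). The scarce family Ala-GGC, with 24, 29 and 18 reads in ribosome-contained libraries, against 22, 10 and 20 in total tRNA, had a log2 fold change of 1.92 ± 0.67 (SE) and lost its call when any mouse was left out.

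Arginine families split in direction. Arg-TCT, which reads AGA codons, was higher in ribosomes with a ratio of 1.59 ± 0.0349 (SD, n = 3), while Arg-TCG, Arg-CCG, Arg-CCT and Arg-ACG were lower with mean ratios of 0.457, 0.510, 0.609 and 0.661. Arg-TCT made up 16.0%, 16.7% and 17.3% of arginine reads in ribosomes, against 6.15%, 6.25% and 6.58% in total tRNA. Its part of arginine reads in ribosomes was more than 2 times that in total tRNA in each mouse. Serine was split too: Ser-AGA made up 54.1%, 52.7% and 53.0% of serine reads in ribosomes, against 38.9%, 40.2% and 40.7% in total tRNA, and Ser-CGA 5.66%, 5.93% and 6.03%, against 14.3%, 13.7% and 13.8%. Leu-AAG was higher and Leu-TAG and Leu-TAA lower, and Ile-AAT was higher and Ile-TAT lower. Glu-CTC was lower with a mean ratio of 0.709, while Glu-TTC had 0.975 and did not pass.

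Families were also sorted by the first anticodon base, and each was described as a part of its amino acid's reads. Among the 39 tested families of amino acids with at least 2 tested families, the ribosome and total shares of the amino acid did not overlap in 17 families that were higher (43.6%) and 17 that were lower (43.6%). Of the 9 families with A at the wobble position, 7 were higher, 1 was lower and 1 overlapped. The 7 were Ala-AGC, Gly-ACC, Ile-AAT, Leu-AAG, Ser-AGA, Thr-AGT and Val-AAC, and the lower one was Pro-AGG, which held over 99% of proline reads in both libraries. Ala-AGC made up 45.2%, 41.8% and 42.7% of alanine reads in ribosomes, against 34.1%, 32.5% and 32.7% in total tRNA. Thr-AGT was lower as a share of all reads, with a log2 fold change of -0.39 ± 0.06 (SE), while it made up 58.0%, 55.6% and 56.4% of threonine reads in ribosomes, against 52.0%, 51.8% and 51.5% in total tRNA. In all of these but Gly-ACC the A is a known site of editing to inosine, which can pair with U, C and A.

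Families with T, written for wobble uridine, were lower within their amino acid in 9 of 14 and higher in 5. The 9 were Ala-TGC, Arg-TCG, Gln-TTG, Ile-TAT, Leu-TAA, Leu-TAG, Lys-TTT, Ser-TGA and Val-TAC. Val-TAC made up 24.6%, 25.4% and 26.2% of valine reads in ribosomes, against 35.7%, 36.8% and 36.5% in total tRNA. The 5 were Arg-TCT, Glu-TTC, Gly-TCC, Pro-TGG and Thr-TGT. Pro-TGG was scarce, with 45, 99 and 81 reads in ribosome-contained libraries, against 88, 112 and 124 in total tRNA. It made up a mean of 0.530% of proline reads in ribosomes and 0.230% in total tRNA. Shares within an amino acid add up to a fixed sum, so a larger part of one family is a smaller part of another, and no test was run on these counts. As a share of all reads, families with T took 18.0 ± 0.440% in ribosomes and 22.4 ± 0.523% in total tRNA (SD, n = 3), and families with A 21.2 ± 0.397% and 19.2 ± 0.111%. A few abundant families weigh most in the sum for T. Lys-TTT took a mean of 4.58% in ribosomes and 7.56% in total tRNA, and Arg-TCG 2.00% and 4.38%. Gly-TCC went the other way, at 3.11% and 1.05%. Of the 15 tested families with T, SeC-TCA included, 4 were called higher and 7 lower. Families with G took 35.8 ± 0.457% in ribosomes and 31.9 ± 0.313% in total tRNA, and families with C 25.0 ± 0.452% and 26.5 ± 0.195%. Within their amino acid, 4 of 12 families with C were higher, 6 were lower and 2 overlapped, and of 4 with G 1 was higher, 1 was lower and 2 overlapped.

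**Figure D2:**
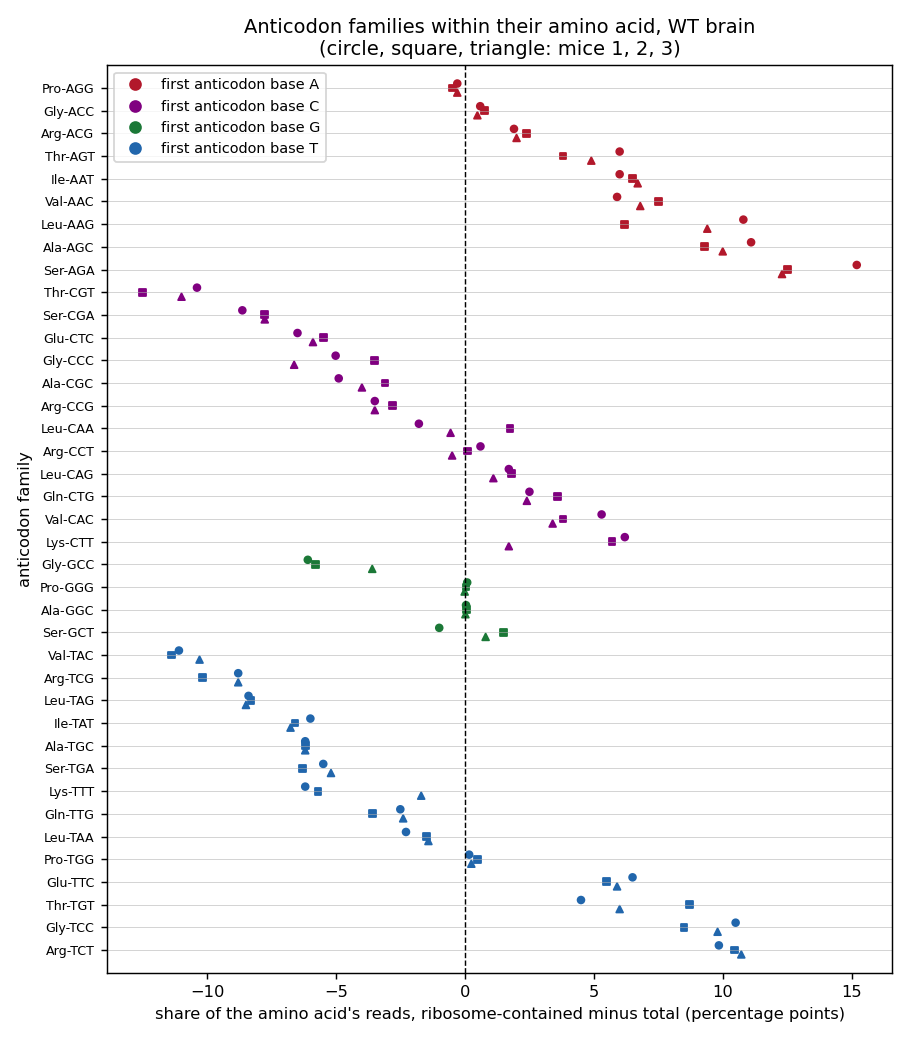
Share of an amino acid's reads taken by each of 39 anticodon families, ribosome-contained minus total, in percentage points, with 1 point per WT mouse and colours for the first anticodon base. The 7 families with A that were higher lie right of 0 in every mouse, and 9 of the 14 families with T lie left of it.

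Groups of families that share a modification gave mixed counts, to be read beside the 40.8% of all 49 families that were higher and the 38.8% that were lower. Of the 8 families with inosine, 5 were higher and 3 lower in ribosomes, with a median log2 fold change of 0.27, against 0.09 over all families, and Ala-AGC (0.98 ± 0.06 SE) and Val-AAC (0.74 ± 0.06) changed most. The 4 queuosine families, whose wobble G is replaced by queuosine, divided into Tyr-GTA higher (log2 0.58 ± 0.09 SE), His-GTG lower (-0.53 ± 0.06) and 2 that did not pass. Of the 3 families with the thiolated wobble uridine mcm5s2U, Lys-TTT was lower (-0.73 ± 0.10) and Gln-TTG and Glu-TTC did not pass. Among the 4 families that FTSJ1 methylates at the wobble base, Phe-GAA was higher (0.53 ± 0.08), Trp-CCA (-0.60 ± 0.06) and Leu-TAA (-0.63 ± 0.09) were lower, and Leu-CAA did not pass. Of the 3 targets of the cytosine methyltransferase DNMT2, Gly-GCC (0.93 ± 0.07) and Val-AAC were higher and Asp-GTC did not pass. Families with a modified adenosine next to the anticodon were 4 higher and 9 lower of 17, with a median log2 fold change of -0.37 and SeC-TCA and Ser-CGA changing most. Families with a long variable arm, a feature of serine, leucine and selenocysteine tRNAs, were 3 higher and 5 lower of 10, with a median of -0.36. By the number of G or C bases in the anticodon, 1 of 4 families with none was higher and 3 were lower, 7 and 5 of 19 with 1, 8 and 10 of 20 with 2, and 4 and 1 of 6 with 3.

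Single rows were tested next. Of 105 rows, 86 passed (81.9% called), 44 higher and 42 lower, of which 27 and 13 by at least 2-fold. Shares also did not overlap in 86 rows (81.9%), but with 54 higher and 32 lower in ribosomes. Scaling by total reads in place of the TMM factors moved the row values up by a median of 0.27 on the log2 scale and gave 53 higher and 33 lower, and 43 higher and 33 lower were called in all 3 scalings. In all, 14 rows changed direction with the scaling, and a log2 fold change of a row below is the TMM value. The 10 most abundant rows in ribosomes were Asp1, Tyr2, Asn1, Glu1, Gly6, iMet1, Lys19, Ser1, Ile1 and Phe2, which together held 51.8%, 52.4% and 53.5% of ribosome-contained reads, against 47.1%, 48.1% and 47.6% of total reads. Tyr2, Gly6, iMet1 and Phe2 were higher and Asp1, Glu1 and Lys19 lower. Asp1 lost its call under total-read scaling and without mouse 2, Phe2 without mouse 1 or mouse 3, and Asn1, Ser1 and Ile1 did not pass. The TMM calls of some rows that hold nearly all of a family differed from those of the family: Asp1 and Glu7 were lower (log2 -0.33 and -0.31) where Asp-GTC and Glu-TTC did not pass, and Ser1 and Ile1 did not pass where Ser-AGA and Ile-AAT were higher. Under total-read scaling Asp1 and Glu7 did not pass (-0.06 and -0.04) and Ser1 and Ile1 were higher (0.30 and 0.24).

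**Figure D3:**
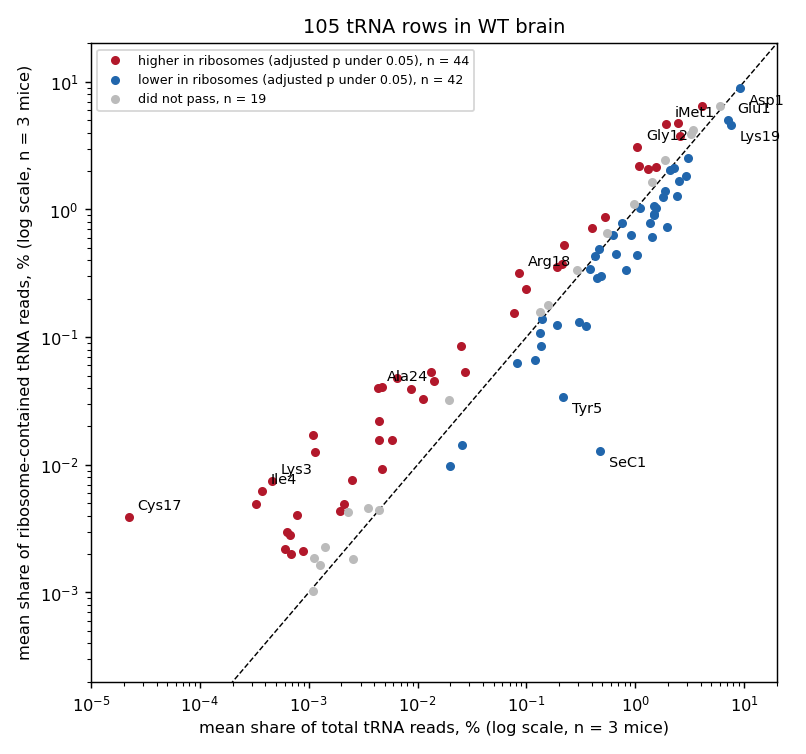
Mean share of ribosome-contained reads against mean share of total reads for the 105 tested rows in WT brain (log axes, n = 3 mice), with the dashed line at equal shares and colours for the test. Rows at the scarce end lie mostly above the line, and SeC1 and Tyr5 lie farthest below it.

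Most of the scarce rows were higher in ribosomes. The minimum mean of 10 reads is taken over both library types, so a row can enter through the type where it is higher. Cys17, Ile4 and Lys3 entered through their ribosome reads, with 1, 17 and 21 reads in total tRNA over all mice. So did iMet3, Pro3 and Met6, whose means over the total libraries alone were also under the minimum. The counts of scarce rows depend in part on that minimum. Of 27 rows with a mean of 10 to under 100 reads, 19 were higher and 0 lower, with a median log2 fold change of 1.21, and of 13 rows with 100 to under 1000 reads 9 were higher and 3 lower, with a median of 1.43. Of 32 rows with 1000 to under 10000 reads 8 were higher and 20 lower (median -0.26), and of 33 with 10000 or more 8 were higher and 19 lower (median -0.36). Under total-read scaling the 4 classes, from scarce to abundant, had 20, 10, 10 and 13 rows higher and 0, 3, 14 and 16 lower, with medians of 1.48, 1.70, 0.01 and -0.09. The 33 most abundant rows together took 88.4%, 87.9% and 88.8% of ribosome-contained reads, against 87.4%, 88.0% and 87.6% of total reads, values that overlapped. The 27 scarcest tested rows together took 0.147%, 0.225% and 0.137% of ribosome-contained reads, against 0.0488%, 0.0520% and 0.0532% of total reads. The ribosome-contained library of mouse 2 had the most, and without that mouse 14 of the 27 were higher and 0 lower, and 9 and 3 of the 13. Reads of an abundant, near-identical row that carry an error can be counted in a scarce one, and their part in these values was not tested.

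Rows Ala21 to Ala24 of the Ala-CGC family led the increases among rows with a mean of 100 or more reads. Ala24 had 101, 351 and 210 reads in ribosome-contained libraries, against 53, 67 and 79 in total tRNA, which were 0.0205%, 0.0655% and 0.0334%, against 0.00352%, 0.00436% and 0.00507%. All ribosome values were higher, and mouse 2 was the highest. The log2 fold changes of Ala24, Ala21, Ala23 and Ala22 were 2.82 ± 0.31, 2.75 ± 0.31, 2.54 ± 0.28 and 1.85 ± 0.28 (SE). The next were Glu5, Arg18, Ala32, Gly5, Gly12 and Gln5, with log2 fold changes of 1.72, 1.64, 1.47, 1.43, 1.29 and 1.28. Of these, Gly12 was abundant, at 3.08 ± 0.0475% of ribosome-contained and 1.04 ± 0.0177% of total reads (SD, n = 3).

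The largest decreases were SeC1 and Tyr5. Tyr5 had 156, 213 and 190 reads in ribosome-contained libraries, against 3189, 3232 and 3542 in total tRNA. Its shares were 0.0317%, 0.0398% and 0.0302%, against 0.212%, 0.210% and 0.227%, which were separate in every mouse. The log2 fold change was -2.95 ± 0.14 (SE; edgeR adjusted p = 8.6e-51). The other 8 were Ser7, Arg11, Ser6, Thr11, Arg4, Thr9, Cys20 and Arg12, from -1.79 to -1.20 on the log2 scale. Ser7 and Ser6 are the rows of Ser-CGA, Arg11 and Arg12 of Arg-TCG, Thr11 and Thr9 of Thr-CGT, and Arg4 of Arg-CCG. Among scarce rows, Cys17 had 17, 41 and 4 reads in ribosome-contained libraries and 1, 0 and 0 in total tRNA, where a count of 0 allows up to 0.000195% of reads in mouse 2. With reads pooled over the mice, the ratio of the shares was 172, with an exact 95% interval of 29.8 to 6910 for counting error only. Ile4 had 33, 37 and 32 reads, against 6, 5 and 6, and Lys3 42, 45 and 35, against 5, 9 and 7. Cys17, Ile4 and Lys3 had under 10 reads in every total library and met the minimum mean through their ribosome reads.

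Isodecoders of one family also differed in their part of the family. Each row was tested against its family as a whole, itself included, which covered 85 rows in 29 families. Of these rows 44 passed (51.8% called), 37 taking a higher and 7 a lower part of their family in ribosomes. The balance depended on the method, since limma's diffSplice called 33 higher and 27 lower. The calls lay in 23 families. Most were minor rows: of 56 rows that were not the most abundant of their family in total tRNA, 36 were higher and 5 lower. Among the minor rows called higher, Cys17, Ile4, Lys3, iMet3, Pro3 and Met6 met the minimum mean of 10 reads only through their ribosome reads. The count of minor rows called higher therefore depends in part on that minimum. Of the 29 most abundant rows, 3 were called. A row that holds most of its family can differ little from it, so few such calls follow in part from the test itself. Ala18, for example, made up 98.7% of its family in total tRNA and 93.7% in ribosomes and did not pass. By diffSplice 30 of the 56 were higher and 9 lower, and of the 29 most abundant rows 3 were higher and 18 lower. By mean share, the most abundant row was the same in ribosomes and total tRNA in 28 of 29 families. In Leu-TAG, among these 28, Leu13 was ahead of Leu12 in ribosomes of mouse 1 (50.1%, against 49.9%).

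Arg-TCT was the exception by mean share. Arg15 made up 29.4%, 27.8% and 30.7% of its reads in ribosomes, against 51.0%, 53.2% and 52.8% in total tRNA. Arg18 made up 27.9%, 26.5% and 27.2% in ribosomes, against 11.5%, 11.4% and 11.6% in total tRNA. Both rows were separate in every mouse, in opposite directions. By mean share Arg16 was the most abundant in ribosomes at 30.4 ± 0.351%, against 25.8 ± 0.818% in total tRNA (SD, n = 3). It was ahead of Arg15 in mice 1 and 2 (30.2% and 30.8%) and behind it in mouse 3 (30.1%, against 30.7%). The log2 changes within the family were 1.24 ± 0.10 for Arg18 and -0.84 ± 0.09 for Arg15 (SE; edgeR adjusted p = 2.3e-11 and 3.1e-09). Arg14 (0.33 ± 0.11) and Arg16 (0.24 ± 0.09) passed, but Arg16 lost its call in every leave-one-out fit and without the mouse block (adjusted p = 0.07), and Arg14 without mouse 2. As shares of all reads, Arg18 had 0.319%, 0.313% and 0.325%, against 0.0825%, 0.0827% and 0.0889%, so its ratio was 3.77 ± 0.105 (SD, n = 3). Arg15 had 0.336%, 0.329% and 0.366%, against 0.366%, 0.386% and 0.404%. These values overlapped narrowly between mice, but Arg15 was lower in ribosomes within every mouse. Its log2 fold change was -0.44 ± 0.09 (SE; edgeR adjusted p = 1.6e-06), called lower in all 3 scalings. Arg-TCT includes a neuron-enriched isodecoder in mouse, and the files do not say which row it is.

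Tyr-GTA, the only tyrosine family, had 2 tested rows. Tyr5 made up 0.539%, 0.582% and 0.442% of the family in ribosomes, against 5.00%, 4.77% and 5.26% in total tRNA, and Tyr2 made up nearly all of the rest. Its log2 change within the family was -3.27 ± 0.13 (SE; edgeR adjusted p = 3.8e-16), the lowest p of the rows tested with a mean of 100 or more reads. In Gly-CCC, Gly4 made up 25.2%, 24.6% and 27.7%, against 14.8%, 14.5% and 15.3%, and Gly5 3.96%, 5.41% and 4.88%, against 1.37%, 2.02% and 2.93%. Gly3, the main row, had 69.4 ± 1.75% in ribosomes and 83.0 ± 1.10% in total tRNA (SD, n = 3), and its call was lost under total-read scaling and without mouse 1 or mouse 3. In Ala-TGC, Ala32 took 6.45 ± 1.10% in ribosomes and 2.19 ± 0.123% in total tRNA, Ala30 1.08 ± 0.0626% and 2.23 ± 0.337%, and Ala33 8.08 ± 1.38% and 11.6 ± 0.432%, while the main row Ala31 had 84.4 ± 2.40% and 84.0 ± 0.665% and did not pass. In Ala-CGC, Ala18 made up 93.7 ± 2.56% in ribosomes and 98.7 ± 0.260% in total tRNA, with Ala21 to Ala24 at 1.48% to 1.79% and 0.225% to 0.461%. In Glu-CTC, Glu5 made up 1.07 ± 0.410% and 0.186 ± 0.0445%.

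**Figure D4:**
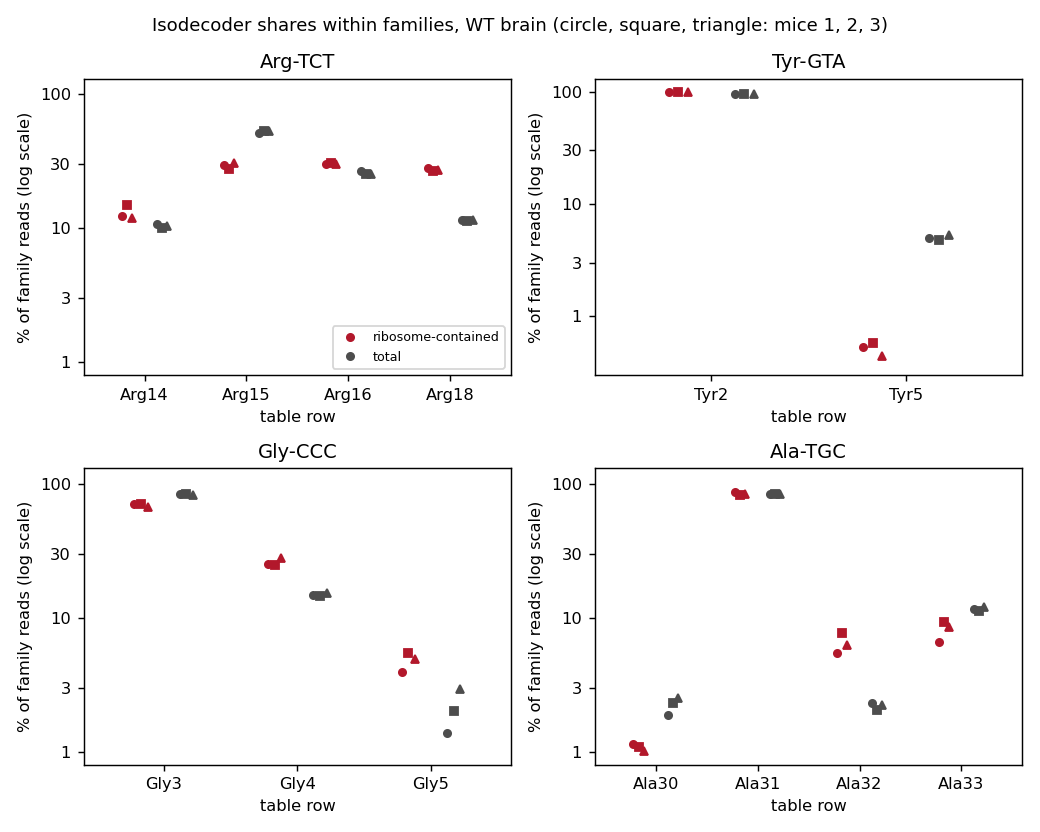
Percentage of a family's reads taken by each tested row in ribosome-contained (red, left) and total (grey, right) libraries of WT brain, on log axes, with 1 point per mouse. Arg18 is higher and Arg15 lower in ribosomes, Tyr5 makes up 0.521% of its family in ribosomes and 5.01% in total tRNA, and Gly4, Gly5 and Ala32 lie higher in ribosomes.

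Most of the calls recurred in the KO mice. In KO brain 79 of 110 rows passed (71.8% called), 36 higher and 43 lower. Of the 44 rows higher in WT ribosomes, 34 were called higher in KO, where 33.3% of the 105 shared rows were, and of the 42 lower rows 40 were called lower, where 41.0% were. None was called in the opposite direction. Of the families, 16 of 20 higher and 19 of 19 lower were called the same way, where 32.7% and 42.9% of all 49 families were called higher and lower in KO. So were 8 of 11 and 9 of 9 amino acid groups, where 36.4% and 40.9% of 22 were. iMet and SeC had log2 fold changes of 1.06 and -5.57 in KO, Gly-TCC 1.14, and Arg18 and Tyr5 1.72 and -3.04. Of the 44 rows called within families in WT, 32 were called with the same sign in KO, where 38.8% of the 85 rows were called. The difference between genotypes was tested for each row, and 13 of 105 passed (12.4% called).

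**Figure D5:**
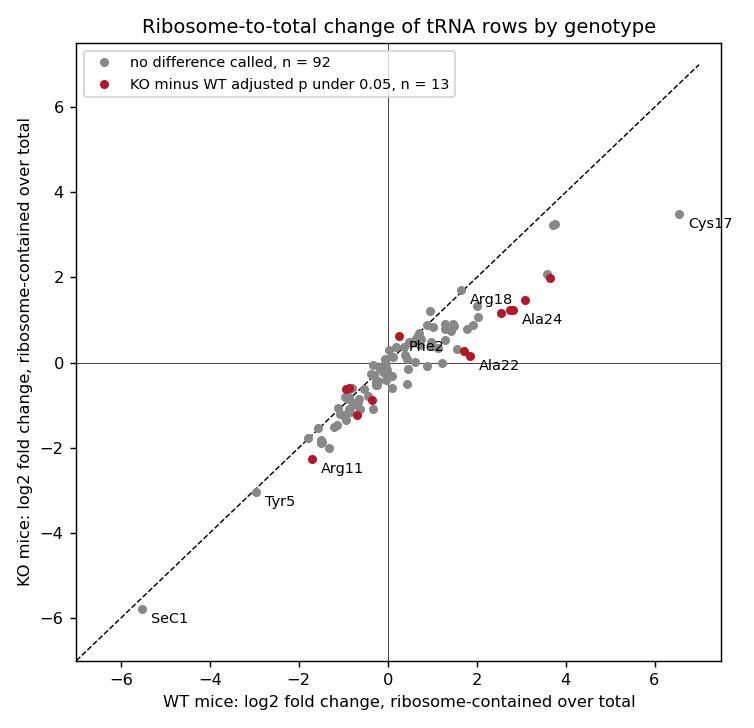
Log2 fold change of ribosome-contained over total tRNA for each row in WT (x) and KO (y) mice, with the dashed line at equality and red for rows whose KO minus WT difference passed. SeC1 and Tyr5 lie near the line at -5.52 and -2.95 in WT, and Ala22 and Ala24 lie below it.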

How the data were processed

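The authors deposited 1 table of counts, read numbers per tRNA row and library per the file headers. Per the labels' protocols, RNA was treated with AlkB, which removes some base methyl groups that block reverse transcription, before library construction. The submitters' processing notes name Bowtie2. Not given in the sources used here are its settings, the tRNA reference and how reads fitting more than 1 row were counted, so near-identical rows may share reads. PCR copies were not told apart, and intervals (95%) and floors (3 reads) cover counting error only.

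Rows, families and amino acid sums with a mean of 10 or more reads over 6 libraries entered a quasi-likelihood fit (edgeR 4.0.16, R 4.3.3) with TMM factors and the mouse as a block, at an adjusted threshold of 0.05. At row level no row-specific spread could be told from the spread shared by all rows, on which the p-values rest. A row within its family was tested with diffSpliceDGE. Pairing is the labels' own, since a number marks 1 mouse. Deviations of the 2 libraries of a mouse from their group means correlated at 0.504, 0.184 and -0.281. No 2 WT libraries of a type agreed within sampling noise. The genotype difference used 12 libraries. Fits were tested on simulated data. limma 3.58.1, DESeq2 1.42.0, pandas 2.3.3, SciPy 1.17.1 and matplotlib 3.10.9 in Python 3.11.15 served alternatives, tables and plots.

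Named rows were the 10 with the highest ribosome shares, the 10 largest called increases and decreases with a mean of 100 or more reads and the same direction in every mouse, and up to 3 scarcer ones each way. Named families were the 5 largest each way and the leading 2 of each list, and within families the 10 lowest p with their relatives. Further families are named where an amino acid is described. Members and lists were chosen with earlier results of these data known. Fragment libraries were used only for the values given at the end.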

Additional observations from a re-analysis of the deposited data

Results flagged for a closer look

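Rows named above differed between genotypes in the ribosome-to-total log2 difference, by a test of the difference itself over 12 libraries (edgeR, Benjamini-Hochberg adjusted over 105 rows). KO minus WT was -1.43 ± 0.36 for Ala24 (SE; adjusted p = 0.0026), -1.37 ± 0.35 for Ala21 (0.003), -1.23 ± 0.32 for Ala23 (0.003), -1.54 ± 0.32 for Ala22 (0.00021), -1.30 ± 0.29 for Glu5 (0.0005), -0.41 ± 0.14 for Arg11 (0.026) and 0.50 ± 0.14 for Phe2 (0.0082). Ribosome-to-total ratios of Ala22 were 1.30, 1.23 and 1.77 in KO mice and 5.18, 5.63 and 2.88 in WT mice. Its mean share was 0.0263% in KO and 0.0391% in WT ribosomes, and 0.0180% in KO and 0.00880% in WT total tRNA. Ratios of Phe2 were 2.15, 1.78 and 1.95 in KO mice and 1.39, 1.38 and 1.58 in WT mice. The Phe2 share was lower in KO in both libraries, at 2.143% against 3.745% in ribosomes and 1.088% against 2.584% in total tRNA.

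In the tRNA fragment libraries, which the comparison did not use, 5 rows took over 10 times their highest WT share in ribosome-contained or total libraries in every WT mouse. Their mean shares of WT fragment reads were 0.486% for Asp3, 0.371% for Gln5, 0.426% for Glu3, 0.0414% for Gly10 and 0.304% for Gly13. In WT ribosome-contained and total libraries, Asp3 averaged 0.0156% and 0.00447%, Gln5 0.0328% and 0.0111%, Gly13 0.0222% and 0.00446%, Gly10 0.00282% and 0.000673%, and Glu3 0.00102% and 0.00109%. The shares of Gly10 and Glu3 rest on few reads, with means of 12.7 and 11.2 reads over these 6 libraries.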

How the results depend on the processing

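Leaving out 1 mouse at a time gave 74 to 85 called rows, 34 to 39 families, 15 to 17 amino acid groups, 32 to 38 rows within families and 69 to 72 rows in KO. Without the mouse block the counts were 84, 39, 19, 39 and 77, and the calls of named items that changed were amino acid methionine and the usage of Arg16, which were lost, and the row Asn1, which was gained. Testing for a change beyond 1.5-fold, chosen after seeing the data, left 57 rows (29 higher, 28 lower), 13 families, 3 amino acid groups and 47 rows in KO. With a mean of 100 or more reads, 24 rows were called within families, and limma's diffSplice called 60 (33 higher, 27 lower), against 44 (37 higher, 7 lower). Scaling by total reads gave 49 higher and 34 lower rows in KO, against 36 and 43. Among the 10 rows most abundant in ribosomes, the sign changed for row Ser1 to -0.28 and row Phe2 to -0.0506 with no filter, and for row Ile1 to 0.24 and row Asn1 to 0.10 under total-read scaling; the cause was not tested. Ser1 and Ile1, close to 0, also changed sign in other settings without passing. Over 13 other settings, 27 of 33 named rows, 16 of 19 named families, 17 of 22 amino acid groups and 15 of 21 rows within families kept their call and its direction, or did not pass, in every setting run. The fit of Cys17 ranged with the mice used, at 8.11 without mouse 1 and 5.25 without mouse 2 (log2), against 6.55. Fewer reads in ribosome-contained libraries limit scarce rows most: the counting interval of a share spans about 20.9% of the value either way at 89 reads.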
